A study of Mus musculus with 16 samples.

Results

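The cytokines GM-CSF, interleukin-3 (IL-3) and interleukin-5 (IL-5) signal through receptors that share one chain, the common beta chain. The receptor genes examined here were Csf2rb, which encodes the common beta chain; Csf2rb2, which encodes the beta chain that mice keep for IL-3 alone; and Csf2ra, Il3ra and Il5ra, which encode the ligand-binding alpha chains for GM-CSF, IL-3 and IL-5. Chromatin accessibility around these 5 genes was read from ATAC-seq peak lists of 16 libraries. A region was a stretch covered by the merged 49000 most significant peaks of each library, and it belonged to a receptor gene if it lay within 100 kb of the 5' end of that gene. Of 90549 regions in the genome, 63 met this rule. Csf2rb had 30 of them, Csf2rb2 27, Csf2ra 15, Il3ra 9 and Il5ra 8, and the first pair of counts overlaps because both beta chain genes lie beside each other.

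Each alpha chain binds its own cytokine with low affinity and needs the beta chain for high affinity and for signaling. Ligand binding brings the beta chains together and activates the kinase JAK2, which phosphorylates the receptor and the transcription factor STAT5. In blood-forming tissue these receptors act on myeloid progenitors and on granulocytes, macrophages, mast cells, basophils and eosinophils. GATA2, the factor tested in the study, is a zinc finger protein that binds the sequence WGATAR (W is A or T, R is A or G) in blood stem and progenitor cells.

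The libraries were made from mouse fetal liver hematopoietic progenitors immortalized with an estrogen-regulated HoxB8 protein. All cells carried a retrovirus for 3 days and were isolated by FACS before ATAC-seq. The 4 groups had 4 libraries each: hi-77+/+ cells, with an intact -77 enhancer of Gata2, infected with empty retrovirus (hi-77+/+ empty); hi-77-/- cells, which lack this enhancer on both alleles, with empty retrovirus (hi-77-/- empty); hi-77-/- cells with retroviral GATA2 (hi-77-/- GATA2); and hi-77-/- cells with 9aa-Ins, a GATA2 protein with 9 amino acids inserted between its zinc fingers (hi-77-/- 9aa-Ins). The labels name no separate cell lines within a genotype, so the deletion cannot be told apart from other differences between the cell lines, and the retroviral proteins come from a viral promoter, not from Gata2. The study calls the hi-77-/- ATAC-seq libraries biological replicates, but neither it nor the labels say whether they came from separate cultures, so p-values measure the spread between these libraries, which may be technical.

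Deposited lists held between 50195 and 112267 peaks, and the read depth is unknown. The least significant of the 49000 kept peaks had a -log10 p between 5.35 and 11.7. It was 5.35 to 7.43 in hi-77-/- GATA2 and 8.75 to 11.7 in hi-77-/- 9aa-Ins. In the empty retrovirus groups it was 7.38 to 8.13 (hi-77-/-) and 8.34 to 9.70 (hi-77+/+). A peak weak enough to be dropped in a 9aa-Ins library could thus be kept in a GATA2 library. Kept peaks covered 12.9 to 25.9 Mb, with the hi-77-/- 9aa-Ins libraries between 20.2 and 25.9 Mb. Peaks in the window of the deleted enhancer, 76 to 78 kb upstream of Gata2, covered 1296 ± 92.2 bp (SD, n = 4) in hi-77+/+ empty, 152 ± 304 bp in hi-77-/- empty, 61.5 ± 123 bp in hi-77-/- GATA2 and 250 ± 302 bp in hi-77-/- 9aa-Ins. The exact permutation test of hi-77+/+ empty against hi-77-/- empty gave p = 0.0286 (two-sided), the smallest this design allows. Of 10 progenitor marker genes, 9 had a peak within 1 kb of the 5' end in every library, Lmo2 being the exception, whereas no hepatocyte or T cell marker had one in any library.

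The sequences that carry the main result are 6 regions whose peaks were present or stronger with GATA2. A region is named by the distance of its center from a gene's 5' end, with minus for upstream and plus for downstream. The Il5ra region is in an intron of Il5ra, and the other 5 regions are intergenic. Each is shown as the 200 bases of the mm10 plus strand at the center of the region, 5' to 3', with WGATAR matches on either strand in capitals.
Csf2rb -7.2 kb, chr15:78318469-78318668: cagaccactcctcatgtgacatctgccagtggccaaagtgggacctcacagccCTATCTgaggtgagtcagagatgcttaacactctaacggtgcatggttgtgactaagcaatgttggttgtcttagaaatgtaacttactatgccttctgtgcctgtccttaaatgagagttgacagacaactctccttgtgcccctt
Csf2rb -12.7 kb, chr15:78312908-78313107: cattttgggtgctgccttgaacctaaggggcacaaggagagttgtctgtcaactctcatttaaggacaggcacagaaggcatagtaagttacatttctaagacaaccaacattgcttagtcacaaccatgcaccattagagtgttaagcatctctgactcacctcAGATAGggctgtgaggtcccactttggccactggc
Csf2rb -3.8 kb, chr15:78321891-78322090: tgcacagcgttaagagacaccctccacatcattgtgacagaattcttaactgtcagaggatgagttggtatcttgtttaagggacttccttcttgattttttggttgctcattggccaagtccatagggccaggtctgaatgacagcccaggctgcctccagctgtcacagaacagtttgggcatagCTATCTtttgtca
Csf2rb -57.7 kb, chr15:78267971-78268170: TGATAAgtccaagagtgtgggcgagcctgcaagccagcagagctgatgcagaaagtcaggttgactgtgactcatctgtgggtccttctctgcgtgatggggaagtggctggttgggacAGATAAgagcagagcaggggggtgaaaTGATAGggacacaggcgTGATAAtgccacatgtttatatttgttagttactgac
Il5ra +16.3 kb, chr6:106732623-106732822: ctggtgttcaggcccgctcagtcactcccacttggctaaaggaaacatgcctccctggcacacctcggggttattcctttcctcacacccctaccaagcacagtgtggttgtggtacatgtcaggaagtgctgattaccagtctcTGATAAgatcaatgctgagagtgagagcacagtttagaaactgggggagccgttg
Csf2ra +20.7 kb, chr19:61207628-61207827: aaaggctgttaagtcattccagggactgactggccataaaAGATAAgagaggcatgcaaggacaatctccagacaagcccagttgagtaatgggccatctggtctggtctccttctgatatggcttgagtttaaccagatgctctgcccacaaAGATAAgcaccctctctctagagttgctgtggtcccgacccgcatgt

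Values below are rank scores. A score of 100 is the most significant peak of a library, scores near 0 are the last of the 49000, and 0 means that no kept peak overlapped the region. Differences were tested with limma on the 8 libraries of the compared groups over all regions with a peak in at least 3 of the 8, and p-values were adjusted by the Benjamini-Hochberg method over all of them. A region is called higher or lower at an adjusted p under 0.05. It is called opened or closed where 4 of 4 libraries of one group and 0 of 4 of the other had a peak. Background shares of opened and closed regions are taken over the regions with a peak in either group compared, not over all regions. Accessibility here is an average over the cells of a library, so fewer cells with an open region and less accessibility per cell cannot be told apart.

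As one set, the 63 regions had more kept peaks with GATA2, mainly around the beta chain genes. The number of the 63 regions with a peak was 33 to 36 in hi-77+/+ empty, 32 to 34 in hi-77-/- empty, 41 to 43 in hi-77-/- GATA2 and 32 to 34 in hi-77-/- 9aa-Ins, and the GATA2 range did not overlap any other. Over the whole genome the regions with a peak numbered 43408 to 45251, 43664 to 45033, 40977 to 43982 and 45476 to 47670 per library in the same group order, with the lowest range in GATA2. The Csf2rb window held 14 ± 1.83 regions with a peak in hi-77+/+ empty, 15 ± 0 in hi-77-/- empty, 20.75 ± 1.5 in hi-77-/- GATA2 and 15.5 ± 1.0 in hi-77-/- 9aa-Ins (SD, n = 4). The counts with GATA2 were also above those of the other groups for Csf2rb2 (16 to 20 against 12 to 15), which shares most of its regions with Csf2rb. The same held for Csf2ra (12 to 13 against 10 to 11), but the ranges overlapped for Il3ra (4 to 5 against 3 to 5) and Il5ra (3 to 7 against 2 to 5). How many of all gene windows show such a gap was not counted, so these gaps only describe the receptor windows. Of the 63 regions, 19 had kept peaks in GATA2 libraries only (30.2%, against 9.15% of all regions), and 5 were in all 4 GATA2 libraries and none of the other 12 (7.94%, against 0.797%). With all deposited peaks 14 of the 19 also had a lower-ranked peak in another group, among them all 5, so the sets describe which peaks ranked within the first 49000. At Il3ra +1.0, +5.0 and +5.4 kb, for example, all 4 hi-77+/+ empty and all 4 9aa-Ins libraries had such a lower-ranked peak. Kept peaks in hi-77+/+ empty libraries only were at 5 regions (7.94%, against 13.3% of all), and 0 regions had them in 9aa-Ins or hi-77-/- empty libraries only (5.22% and 4.43% of all). At the other end, 23 of the 63 (36.5%) had a peak in all 16 libraries, against 23.4% of all regions.

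The comparison of hi-77-/- GATA2 with hi-77-/- empty asks what GATA2 does to chromatin in cells short of it. Of the 63 regions 41 were tested, and 9 were higher and 6 lower with GATA2 (22.0% and 14.6%, with 9.17% and 12.9% of all tested regions as background). Presence alone called 5 of the 63 opened and 2 closed (background 2.16% and 2.78%). All 5 are among the 9 higher regions, and both closed regions are among the 6 lower. Their direction was fixed by the group that holds the peaks. Such regions were also among those tested genome-wide. The median difference of the tested regions was 1.15 in rank score, against 0.086 over all tested regions.

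In the beta chain locus, 3 regions between both genes had kept peaks only with GATA2. Csf2rb at chr15:78325752-78353847 (ENSMUSG00000071713.6) runs on the plus strand and Csf2rb2 at chr15:78282507-78305721 (ENSMUSG00000071714.7) on the minus strand, so the genes point away from each other and share the DNA between their 5' ends. The region at -7.2 kb of Csf2rb scored 34.2, 57.5, 48.2 and 61.25 in GATA2 libraries 1 to 4, the region at -12.7 kb scored 25.0, 38.45, 25.3 and 29.5, and the region at -3.8 kb scored 53.3, 38.4, 25.3 and 36.9. All 3 scored 0 in every one of the 12 other libraries, so groups did not overlap. A neighbor at -4.7 kb had a peak in all 16 libraries. The means with GATA2 were 50.3 ± 12.1, 29.6 ± 6.26 and 38.5 ± 11.48 (SD, n = 4). Regions opened with GATA2 reach the test through the GATA2 libraries alone, so the direction was fixed and no p is given for them. Their peaks were of middle or low rank, with 2, 0 and 1 of the 4 GATA2 libraries, in the same order, holding them in the upper 50% of the kept list. None of the 3 lies within 1 kb of either 5' end.

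Deposited peaks beyond the first 49000 separate these regions. The -7.2 kb region had a lower-ranked peak in 1 other library, hi-77+/+ empty 2, at rank 102443 of 111743. The -12.7 kb region had one in hi-77+/+ empty 4, at rank 59520 of 83018. Neither had a peak of any rank in the 8 hi-77-/- empty or 9aa-Ins libraries. By contrast, the -3.8 kb region had lower-ranked peaks in hi-77+/+ empty 4, in hi-77-/- empty 2 and 4 and in all 4 9aa-Ins libraries, and in 9aa-Ins 1 it stood at rank 50726 with the same -log10 p, 11.7, as the least significant kept peak. Its zero scores therefore include peaks just outside the kept list.

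The regions at -7.2 kb and -12.7 kb are near-identical inverted copies. The -7.2 kb sequence matched the other strand at -7.31 kb from Csf2rb2, inside the -12.7 kb region, with 260 of 262 aligned bases identical (99.2%). The same held for their neighbors at -6.8 kb and -13.1 kb (97.6% identity), which had peaks in 3 and 2 GATA2 libraries, respectively, and in no other library. The copies thus lie at nearly the same distance upstream of each beta chain gene. Of the 75-base words in the regions, 58.8% at -7.2 kb, 63.9% at -12.7 kb and 68.1% at -3.8 kb occur once in mm10. The authors kept uniquely mapped reads, so each copy is measured through its single-copy part, and the regions are not independent of each other. The inverted copy of the -3.8 kb region, at -3.26 kb of Csf2rb2 with 94% identity, had no peak in any library, lower-ranked peaks included.

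**Figure D1:**
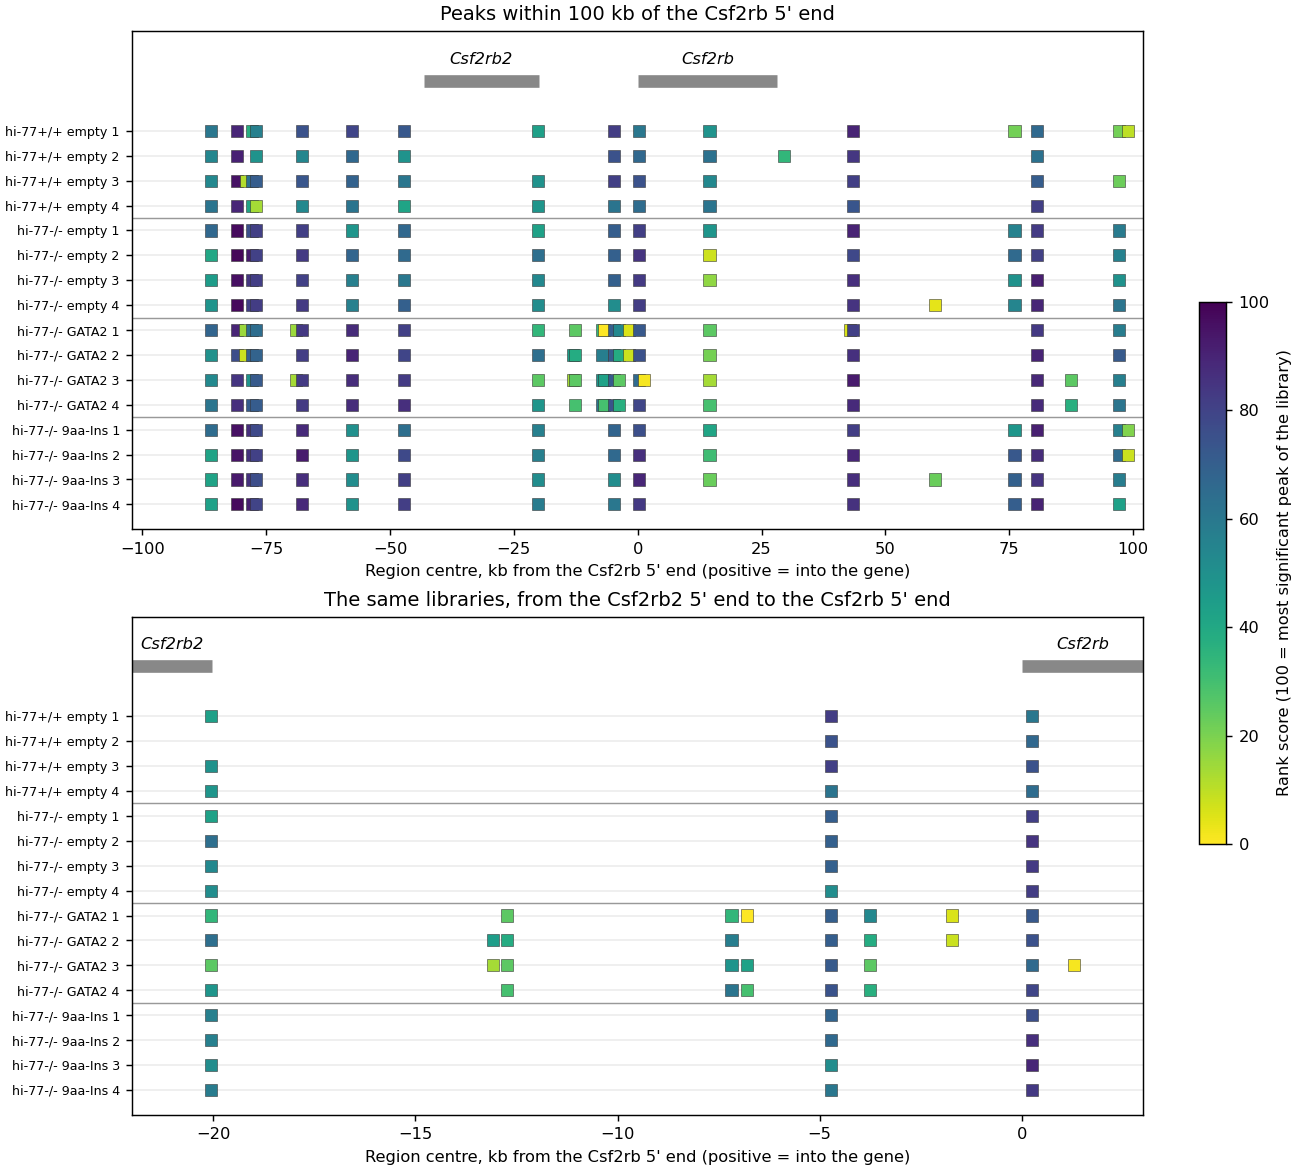
Regions around the beta chain genes, plotted by distance from the Csf2rb 5' end in kb (x axis) with 1 row for each of the 16 libraries (y axis); a square is a kept peak, its color gives the rank score from 0 to 100, and gray bars are the genes. The lower panel enlarges the stretch between both 5' ends, where squares at -12.7, -7.2 and -3.8 kb stand in the hi-77-/- GATA2 rows only.

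The region at -57.7 kb of Csf2rb, which is downstream of the Csf2rb2 gene, had a peak in every library and was strongest with GATA2. It scored 87.85, 90.2, 87.2 and 87.5 in hi-77-/- GATA2, 47.8, 67.9, 56.9 and 56.9 in hi-77-/- empty, 50.1, 47.9, 51.2 and 49.3 in 9aa-Ins, and 79.6, 66.5, 68.8 and 61.6 in hi-77+/+ empty. No library of another group reached the GATA2 range. The difference between GATA2 and hi-77-/- empty was 30.8 (SE 3.97, adjusted p = 0.000306). A region at -47.2 kb rose as well, by 16.9 (SE 3.05, adjusted p = 0.00217).

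The 5' end regions of the beta chain genes did not follow these distal regions. The region over the Csf2rb 5' end (chr15:78325542-78326489) scored 81.4, 85.0, 83.1 and 82.15 in hi-77-/- empty and 72.4, 75.2, 65.9 and 79.25 with GATA2, a difference of -9.71 (SE 2.87, adjusted p = 0.0313), so the groups did not overlap and GATA2 libraries were lower. The Csf2rb2 5' end region (chr15:78305513-78305901) scored 42.9, 63.9, 53.4 and 51.5 in hi-77-/- empty and 34.2, 63.7, 25.3 and 47.7 with GATA2, ranges that overlap, and was not called (difference -10.2, adjusted p = 0.468). These regions are copies of each other too, with 90.8% identity over the Csf2rb region. The Csf2rb call was lost without any 1 of 6 libraries, all but GATA2 2 and 4 (-10.2 to -7.29, adjusted p up to 0.0865).

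Peaks elsewhere in the beta chain windows fell with GATA2. A region at +95.3 kb of Csf2rb2, intergenic and nearest to Pvalb, scored 52.1, 53.3, 56.9 and 40.5 in hi-77-/- empty and 0 in all 4 GATA2 libraries, also among lower-ranked peaks (difference -50.7). A region at +76 kb of Csf2rb, in an intron of Tst, scored 55.7, 65.96, 49.4 and 54.3 against 0 (difference -56.4), though 2 GATA2 libraries had a lower-ranked peak there. Both closed, and these differences too have no p, as they were fixed by the libraries that hold the peak. With 50% as many peaks kept, where more of the scores are 0, they shrank to -6.15 and -13.0. Over Ncf4, which encodes a subunit of the phagocyte NADPH oxidase, the regions at -80.8, -77.9 and -77.1 kb of Csf2rb were lower by -12.9, -19.8 and -12.4 (adjusted p = 0.00169, 0.0186 and 0.00478), the second call being lost without hi-77-/- empty 2 or 3 (-19.5 to -16.7, adjusted p up to 0.0680). GAGGAAG, a sequence of the kind that the Ets factor PU.1 binds, was in the windows of 4 of the 6 regions that were lower with GATA2 and of 0 of the 9 that were higher, and WGATAR in 1 and 7, respectively. Genome-wide, GAGGAAG was in 27.7% of regions closed with GATA2, 14.8% of those opened and 16.5% of all. For WGATAR these shares were 16.8%, 74.8% and 26.3%. The member counts are small and were not tested against these shares. Of both closed receptor regions +95.3 kb holds GAGGAAG and +76 kb neither sequence, and the Csf2rb 5' end region holds both. The +95.3 kb window is shown for contrast with the 6 above, with GAGGAAG in capitals.
Csf2rb2 +95.3 kb, chr15:78210341-78210540: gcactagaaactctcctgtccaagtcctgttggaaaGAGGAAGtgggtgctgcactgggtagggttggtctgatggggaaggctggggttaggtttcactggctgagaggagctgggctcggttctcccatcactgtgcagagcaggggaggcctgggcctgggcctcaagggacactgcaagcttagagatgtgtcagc

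Among the alpha chains, GATA2 opened 1 region in Il5ra and 1 near Csf2ra. Il5ra, at chr6:106710357-106749037 on the minus strand (ENSMUSG00000005364.11), had no region within 1 kb of its 5' end. Its intron region at +16.3 kb scored 55.4, 47.1, 19.1 and 49.7 with GATA2 and 0 in the 12 other libraries (mean with GATA2 42.8 ± 16.2, SD, n = 4). Lower-ranked peaks lay there in hi-77+/+ empty 3 and in 9aa-Ins 1 and 2. The one in 9aa-Ins 2 had a -log10 p of 10.1, above the 7.59 of the kept peak in GATA2 3. Csf2ra, at chr19:61223957-61228429 on the minus strand (ENSMUSG00000059326.7), had the region at +20.7 kb, which scored 4.345, 60.3, 59.9 and 54.9 with GATA2 and 0 elsewhere (mean 44.9 ± 27.1). Here GATA2 library 1 stood far below the other 3, with 50% as many peaks kept the mean was 12.6, and lower-ranked peaks were present in hi-77+/+ empty 1 and in 9aa-Ins 1, 2 and 4. The kept peak in GATA2 1 had a -log10 p of 6.36, below the 7.66 of the peak in 9aa-Ins 2 that was not kept.

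Csf2ra had 2 more regions that were higher with GATA2 and lower in hi-77-/- empty than in hi-77+/+ empty. At +76.5 kb, the scores were 74.4, 74.4, 56.8 and 77.8 in hi-77+/+ empty, 28.9, 26.5, 14.9 and 50.9 in hi-77-/- empty, and 67.2, 63.3, 47.4 and 60.8 in hi-77-/- GATA2. The hi-77-/- empty libraries were lower by -40.5 (SE 8.72, adjusted p = 0.00396), and GATA2 raised the score by 29.4 (SE 8.89, adjusted p = 0.0346), with 1 hi-77-/- empty library above the lowest GATA2 library. At +4.5 kb, at the 3' end of the gene, the means were 98.5, 91.1 and 97.1 in the same order (differences -7.38 and 6.03, adjusted p = 0.00325 and 0.0213). The GATA2 calls were lost at +76.5 kb without any 1 of 6 libraries, all but hi-77-/- empty 4 and GATA2 3 (24.3 to 29.0, adjusted p up to 0.0789), and at +4.5 kb without hi-77-/- empty 4 or GATA2 1 or 3 (5.25 to 5.89, adjusted p up to 0.0617). The region over the Csf2ra 5' end ranged from 96.9 to 99.6 in all 16 libraries and was not called in any comparison. Regions at +28.8 kb and -38.3 kb scored between 99.8 and 99.9 in every library.

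Il3ra, at chr14:14346275-14356011 on the plus strand (ENSMUSG00000068758.8), had no region called between GATA2 and hi-77-/- empty. Its 5' end region (chr14:14345138-14347058) averaged 89.2 ± 3.3 in hi-77-/- empty and 93.1 ± 2.1 with GATA2 (SD, n = 4).

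**Figure D2:**
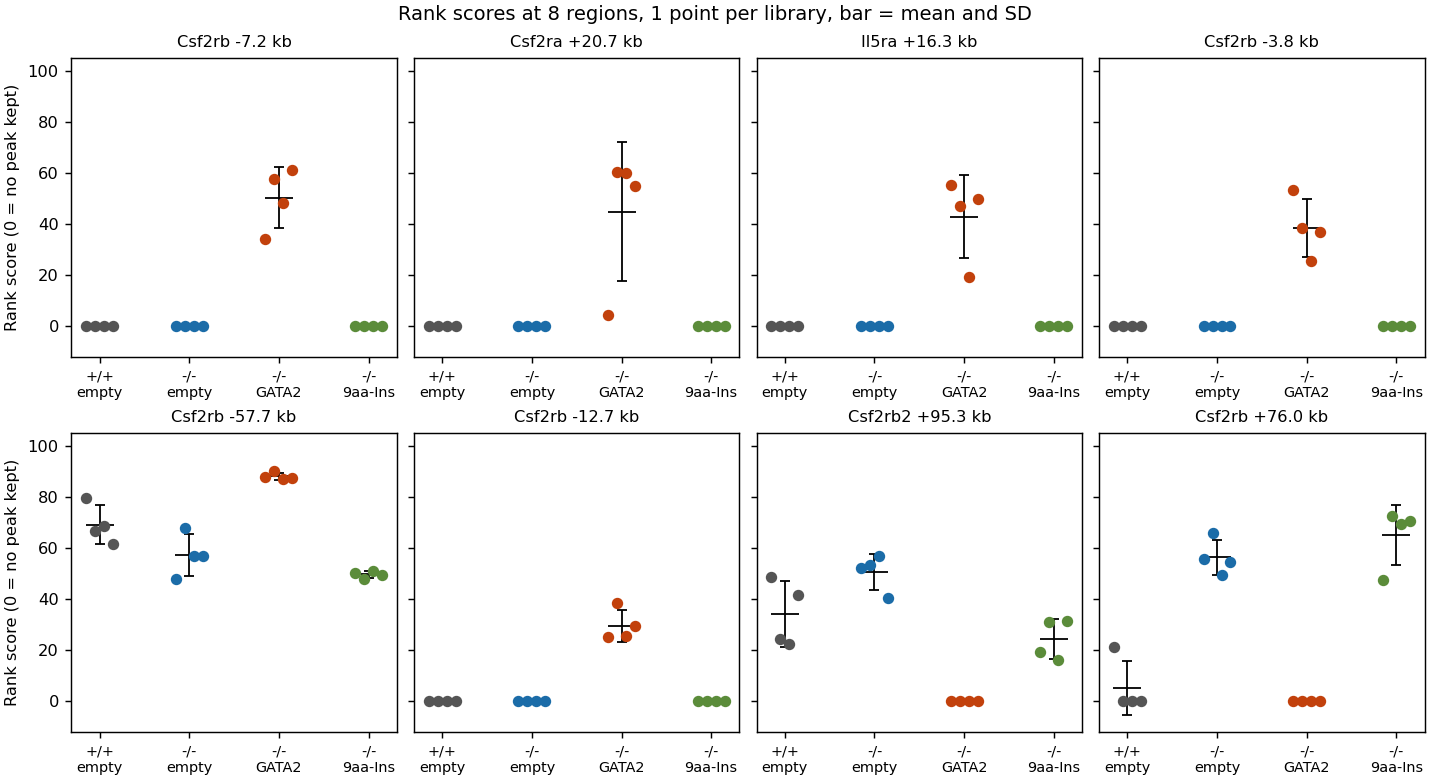
Rank scores (y axis, 0 to 100) of individual libraries in each group at the 8 called regions with the largest difference between GATA2 and hi-77-/- empty; each point is 1 library, and bars give the mean and SD. The 5 regions opened with GATA2 lie at 0 in every other group, and Csf2rb +76 kb and Csf2rb2 +95.3 kb are at 0 in the GATA2 libraries.

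The regions opened with GATA2 held the GATA motif, which the rule did not use, as did most such regions genome-wide. WGATAR, on either strand, was in the 200 bp window of all 5 members opened with GATA2, and in 12 of the 19 members (63.2%) with kept peaks in GATA2 libraries only. It was in 24 of the 63 members (38.1%), in 26.3% of all 90549 regions and in 74.8% of the 1565 regions opened with GATA2 genome-wide. Of the 722 regions genome-wide in all 4 GATA2 libraries and none of the other 12, 81% held it. The -57.7 kb region held 4 matches. Since the -7.2 kb and -12.7 kb windows are copies, their match is the same one. An E-box followed by a GATA motif (CANNTG, then 6 to 14 bases to the WGATAR) was in 1 of the 5, at Csf2ra +20.7 kb. It was in 1.97% of all regions and in 7.86% of the 1565 regions opened with GATA2. The window of the Csf2rb 5' end held CAGATG 6 bases before AGATAA. The Runx sequence TGTGGTT was in 1 of the 5, at Il5ra +16.3 kb (9.83% of all regions), and GAGGAAG was in 0 of the 5 and in 16.5% of all regions. Among the 1565 opened regions these shares were 12.7% and 14.8%. A match describes letters in a window and not occupancy.

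Markers of some other cells moved with GATA2 as well, in both directions. Of 6 mast cell and basophil markers, 3 to 4 had a peak within 1 kb of the 5' end in the GATA2 libraries, against 1 in hi-77+/+ empty and 1 to 2 in hi-77-/- empty and 9aa-Ins, with Cpa3 and Prss34 in GATA2 libraries only and Cma1 and Ms4a2 in none of the 16. Of 4 eosinophil markers, 1 to 2 had a peak with GATA2 and 1 in the other groups, with Prg2 in GATA2 libraries only and Epx and Ccr3 in none. Both cell types use these receptors. Of 5 B cell markers, 1 had a peak in every GATA2 library, against 3 in every hi-77-/- empty library, 2 in every 9aa-Ins library and 1 to 3 in hi-77+/+ empty. The eosinophil counts overlapped between GATA2 and hi-77-/- empty, as did those of the remaining lists. Of 6 erythroid markers 2 to 3 had a peak in both, and of 4 endothelial markers 1. Of 6 neutrophil and monocyte markers it was 2 to 3 with GATA2 and 1 to 3 in hi-77-/- empty. The part of such cells in the receptor results was not tested.

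The comparison of 9aa-Ins with hi-77-/- empty asks whether the insertion protein acts on the same chromatin. Few of the receptor regions moved. Of 34 tested, 1 was higher and 2 were lower (2.94% and 5.88%, background 6.57% and 2.31%), and 0 were opened or closed (background 1.81% and 0.229%). The 3 calls were Csf2rb -67.8 kb, in an Ncf4 intron, at 7.14 (adjusted p = 0.0145, but -86.5 with peaks narrower than 1 kb), Csf2ra +4.5 kb at -8.32 (adjusted p = 0.0112, but 0.159 with all peaks and 0.145 with narrow ones) and Csf2ra +29.8 kb at -7.39 (adjusted p = 0.0384, but 0.324 with all peaks), all at regions that had peaks in both groups. The first was lost without 9aa-Ins 2 (5.87, adjusted p = 0.0546) and the last without any 1 of 6 libraries, all but hi-77-/- empty 4 and 9aa-Ins 3 (-8.04 to -6.27, adjusted p up to 0.109). The -57.7 kb region of Csf2rb was not called (-7.75, adjusted p = 0.459), nor was its 5' end region (0.878, adjusted p = 0.876).

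Set directly against GATA2, 9aa-Ins differed in both directions at the receptor regions. Of 42 regions tested, 9 were higher and 10 lower (21.4% and 23.8%, background 18.3% and 9.7%), and 2 were opened and 6 closed (background 3.69% and 1.83%). The 10 include the 5 regions opened with GATA2, which had no kept peak with 9aa-Ins, so this direction was fixed by how they were picked and no p is given. With all deposited peaks, where 9aa-Ins libraries had lower-ranked peaks at 3 of them, 9aa-Ins stood below GATA2 by -21.45 at Csf2rb -3.8 kb, -36.5 at Il5ra +16.3 kb and -42.9 at Csf2ra +20.7 kb, none of which passed the test (adjusted p = 0.192, 0.0645 and 0.0507). The other closed region was Csf2ra -35.4 kb, at 57.2, 57.0, 62.9 and 6.33 with GATA2 and 0 with 9aa-Ins (-45.8). Of the regions with kept peaks in both groups, Csf2rb -57.7 kb was lower by -38.6 (SE 3.02, adjusted p = 0.000103), Csf2ra +4.5 kb by -14.3 (SE 1.27, adjusted p = 0.000112) and the Il3ra 5' end region by -7.26 (SE 1.73, adjusted p = 0.00872). Csf2ra +29.8 kb made up the 10, at -9.83 (adjusted p = 0.00225).

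The 9 regions higher with 9aa-Ins included both that closed with GATA2. The +76 kb region of Csf2rb scored 47.5, 72.7, 69.4 and 70.6 with 9aa-Ins and 0 with GATA2 (65.0), and the +95.3 kb region of Csf2rb2 scored 19.1, 30.9, 16.04 and 31.5 against 0 (24.4). The latter stood below hi-77-/- empty by -26.3, with an adjusted p of 0.0541. The Ncf4 regions were higher with 9aa-Ins by 10.85, 23.7 and 9.60 (adjusted p = 0.00454, 0.00251 and 0.0197). Csf2rb -67.8 kb was higher by 6.31 (adjusted p = 0.00953). Il5ra -56.1 kb, Csf2ra -4.0 kb and the Csf2rb 5' end were higher by 30.4, 34.5 and 10.6 (adjusted p = 0.0228, 0.0105 and 0.0374). Of these, the -77.1 kb region lost its call without 9aa-Ins 2 or 4 (8.96 and 9.22), Il5ra -56.1 kb without GATA2 2 or 3 (29.2, adjusted p up to 0.0522), and the Csf2rb 5' end without any 1 of 6 libraries, all but GATA2 4 and 9aa-Ins 1 (8.17 to 11.3, adjusted p up to 0.118). Both 9aa-Ins comparisons and the GATA2 comparison share the libraries of hi-77-/- empty or GATA2, so their values are not independent.

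**Figure D3:**
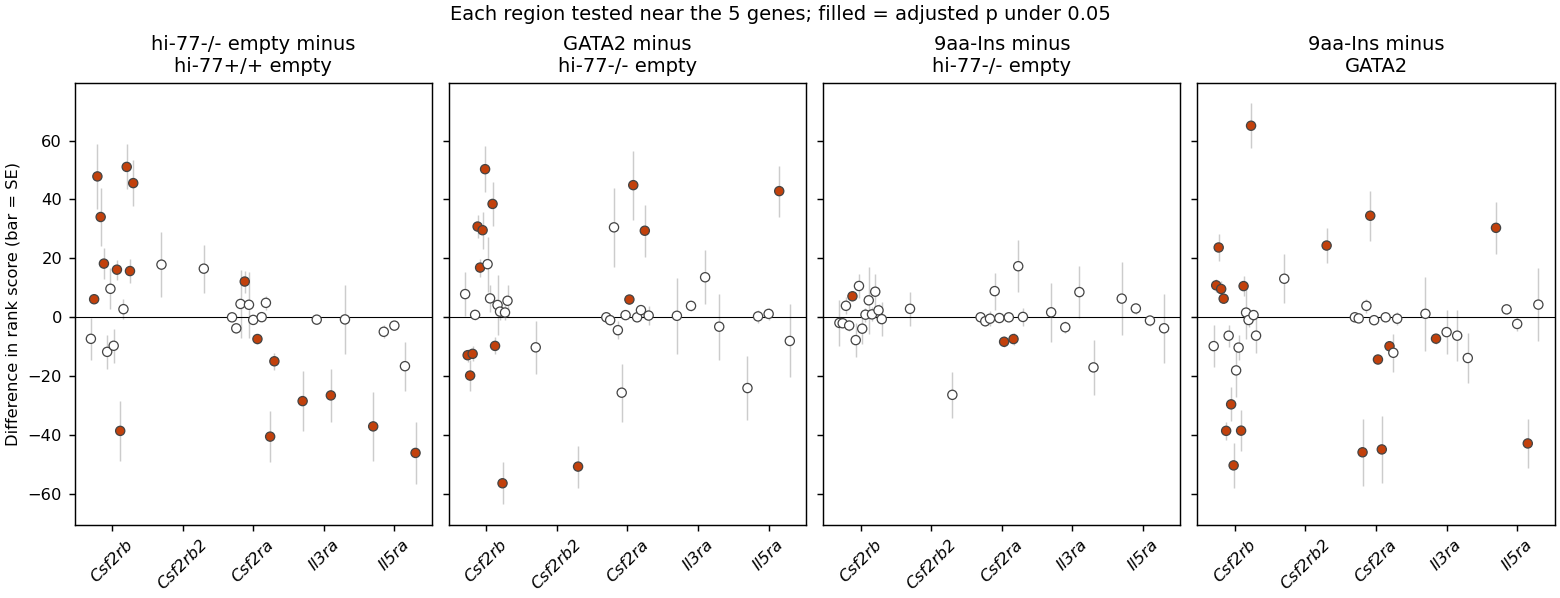
Difference in rank score (y axis) of each tested region, grouped by gene (x axis), in the 4 comparisons, with bars for the SE from limma and filled points for an adjusted p under 0.05; regions in the windows of both beta chain genes stand under Csf2rb. The comparison of 9aa-Ins with hi-77-/- empty has 3 filled points, all between -8.32 and 7.14.

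The comparison of hi-77-/- empty with hi-77+/+ empty asks what the lost enhancer changes. Of 36 regions tested, 9 were higher and 8 lower (25.0% and 22.2%, background 21.2% and 20.2%), and 0 were opened or closed (background 4.29% and 2.53%), so the shares were near those of all regions. The median difference of the tested regions was -0.37 and of all tested regions -0.29. None of the 5 regions opened with GATA2 had a kept peak in hi-77+/+ empty, whose cells have their own Gata2 enhancer, but each had a lower-ranked peak in 1 hi-77+/+ empty library. Genome-wide, 722 of the 1565 regions opened with GATA2 had kept peaks in no other group, hi-77+/+ empty included.

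Of the 9 higher regions, 8 lay in the beta chain windows. The Csf2rb 5' end scored 60.4, 66.5, 75.0 and 65.1 in hi-77+/+ empty, all below the 4 hi-77-/- empty libraries (16.2, SE 3.38, adjusted p = 0.00337). Csf2rb +76 kb was at 21.2 in 1 hi-77+/+ empty library and 0 in the other 3 (51.1, SE 7.62, adjusted p = 0.000476), and +97.2 kb, in a Gm36644 intron, was higher by 45.6 (SE 7.90, adjusted p = 0.00115). The 3 Ncf4 regions at -80.8, -77.9 and -77.1 kb were higher by 6.13, 47.8 and 34.05 (adjusted p = 0.00466, 0.00607 and 0.0184). These 3 also fell with GATA2, whereas the Ncf4 intron region at -67.8 kb was higher in hi-77-/- empty by 18.2 (adjusted p = 0.0160) and was not called with GATA2 (0.823, adjusted p = 0.769). The region in the intron of Csf2rb at +14.5 kb went the other way, from 48.5, 62.9, 53.4 and 61.6 to 47.8, 7.755, 16.5 and 0 (-38.6, SE 10.2, adjusted p = 0.0120).

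Of the 8 lower regions, 2 lay in the Il5ra window, both beyond 50 kb, 2 in the Il3ra window and 3 in that of Csf2ra. Il5ra +85.1 kb, in an intron of Cntn4, scored 50.6, 70.9, 64.9 and 74.8 in hi-77+/+ empty and 3.09, 37.3, 36.5 and 0 in hi-77-/- empty (-46.1, SE 10.5, adjusted p = 0.00547). Il5ra -56.1 kb, intergenic, fell from 64.6, 51.2, 75.9 and 66.6 to 49.9, 13.2, 47.1 and 0 (-37.05, SE 11.6, adjusted p = 0.0259) and scored 0, 0, 0 and 14.02 with GATA2. The groups did not overlap at either, but the -56.1 kb call was lost without hi-77-/- empty 2 or 4 or hi-77+/+ empty 3 or 4 (-36.4 to -27.9, adjusted p up to 0.0722). Il3ra +2.7 kb, inside the gene, and Il3ra -51.7 kb, in a Gm48857 exon, were lower by -26.5 and -28.5 (adjusted p = 0.0365 and 0.0437), and the groups overlapped at both. These calls were lost without any 1 of 4 libraries at +2.7 kb, numbers 1 and 3 of both groups, and of 6 at -51.7 kb, all but number 2 of each (adjusted p up to 0.0922 and 0.110). Csf2ra +87.5 kb, over Zfp950, was lower by -14.9 (SE 2.93, adjusted p = 0.00232), whereas Csf2ra -16.5 kb was higher by 12.1 (adjusted p = 0.0243), a call lost without hi-77-/- empty 1 or 3 or hi-77+/+ empty 3 or 4 (9.91 to 11.3, adjusted p up to 0.0788). The median difference over all regions of a chromosome was 3.08 on chromosome 15, -0.02 on 6, 0.75 on 14 and -3.58 on 19.

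Summing the rank scores over a gene's window gives a single value per library. For Csf2rb it was 914, 748, 931 and 754 in hi-77+/+ empty, 1047, 1037, 1004 and 998 in hi-77-/- empty, 1117, 1190, 1121 and 1210 in hi-77-/- GATA2, and 1066, 1084, 1054 and 1024 in 9aa-Ins. The order of the means was hi-77+/+ empty, hi-77-/- empty, 9aa-Ins and GATA2, and only 9aa-Ins and hi-77-/- empty did not differ beyond their spread (35.7, adjusted p = 0.410). The score was higher by 185 in hi-77-/- empty than in cells with the enhancer (SE 44.0, adjusted p = 0.00414, with 19.4% of all gene windows higher and 32.6% lower). It was a further 138 higher with GATA2 (SE 30.4, adjusted p = 0.00788, background 11.8% higher and 13.8% lower) and was lower by -102.5 with 9aa-Ins than with GATA2 (SE 31.1, adjusted p = 0.0307, background 18.8% higher and 9.99% lower). The first of these rests on far regions. Within 50 kb the hi-77-/- empty libraries differed from those of hi-77+/+ empty by -10.3 (adjusted p = 0.667), while GATA2 stood above hi-77-/- empty by 166 (adjusted p = 0.00191). The 3 regions opened with GATA2 in this locus added 50.3, 29.6 and 38.5 to the 166, with 0 in hi-77-/- empty. Their direction was fixed, so this p is no separate test of them. The 3 calls over 100 kb also rest on lists of equal length. With all deposited peaks these differences were -48.4, 192 and 141 (adjusted p = 0.654, 0.488 and 0.505), the first and the last with the opposite sign. With 50% as many peaks kept, GATA2 stood above hi-77-/- empty by 21.3 (adjusted p = 0.647), and this call was lost too with narrow peaks (196, adjusted p = 0.0749) and where a peak had to cover 50% of its region (80.6, adjusted p = 0.792). The call between 9aa-Ins and GATA2 was lost without GATA2 2 or 4 or 9aa-Ins 3 or 4 (-101.5 to -85.6, adjusted p up to 0.0881).

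Csf2rb2 shares most of these regions. Its window score averaged 787 ± 87.4, 929.5 ± 32.6, 994 ± 38.05 and 930 ± 17.02 in hi-77+/+ empty, hi-77-/- empty, GATA2 and 9aa-Ins (SD, n = 4). Only the step between the empty retrovirus groups was called among neighbors in that order (142.5, SE 40.7, adjusted p = 0.0117), and its sign turned within 50 kb (-6.59, adjusted p = 0.821) and with all peaks (-64.2, adjusted p = 0.4998). GATA2 exceeded hi-77-/- empty by 64.7 (adjusted p = 0.126). Within 50 kb, which leaves out the closed +95.3 kb region, GATA2 stood above hi-77-/- empty by 201 (adjusted p = 0.000568) and 9aa-Ins below GATA2 by -185 (adjusted p = 0.000569). The regions opened with GATA2 between both genes, whose direction was fixed, entered both differences.

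For Csf2ra the window score averaged 875.5 ± 34.2, 831 ± 33.3, 921 ± 32.1 and 825 ± 10.6 in the same group order. GATA2 was above hi-77-/- empty by 89.9 (SE 27.05, adjusted p = 0.0331) and 9aa-Ins below GATA2 by -96.7 (SE 24.2, adjusted p = 0.0129), and hi-77-/- empty did not pass the test against hi-77+/+ empty (-44.05, adjusted p = 0.221). With all deposited peaks the first pair became 85.1 and -63.4 (adjusted p = 0.641 and 0.631), and the first call was lost without hi-77-/- empty 1, 2 or 3 or GATA2 2 or 3 (78.04 to 96.4, adjusted p up to 0.0905). Il3ra averaged 213 ± 4.40, 153 ± 27.7, 193 ± 29.9 and 149 ± 27.5, and hi-77-/- empty was lower than hi-77+/+ empty by -60.1 (SE 14.95, adjusted p = 0.00536), a call lost with 50% as many peaks (-19.9, adjusted p = 0.1305), with narrow peaks (-98.2, adjusted p = 0.0679) and under the 50% coverage rule (-11.2, adjusted p = 0.777). Il5ra averaged 325 ± 27.9, 216 ± 32.5, 239.5 ± 23.04 and 221 ± 37.15, with a difference of -108 between both empty groups (SE 20.6, adjusted p = 0.00101) that came to -20.2 within 50 kb (adjusted p = 0.0948). Neither was called between GATA2 and hi-77-/- empty over 100 kb (39.9 and 23.3, adjusted p = 0.1375 and 0.409), but over 50 kb Il5ra was, at 55.1 (adjusted p = 0.00137). Most of the 55.1 came from the opened region at +16.3 kb, with a mean of 42.8 with GATA2 and 0 in hi-77-/- empty. The direction of that region was fixed, so the window p is no separate test of it. In the comparison of 9aa-Ins with hi-77-/- empty, limma called 0 of the 5 windows, and 0 had an unadjusted p under 0.05 (background 8.28% higher and 2.01% lower).

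**Figure D4:**
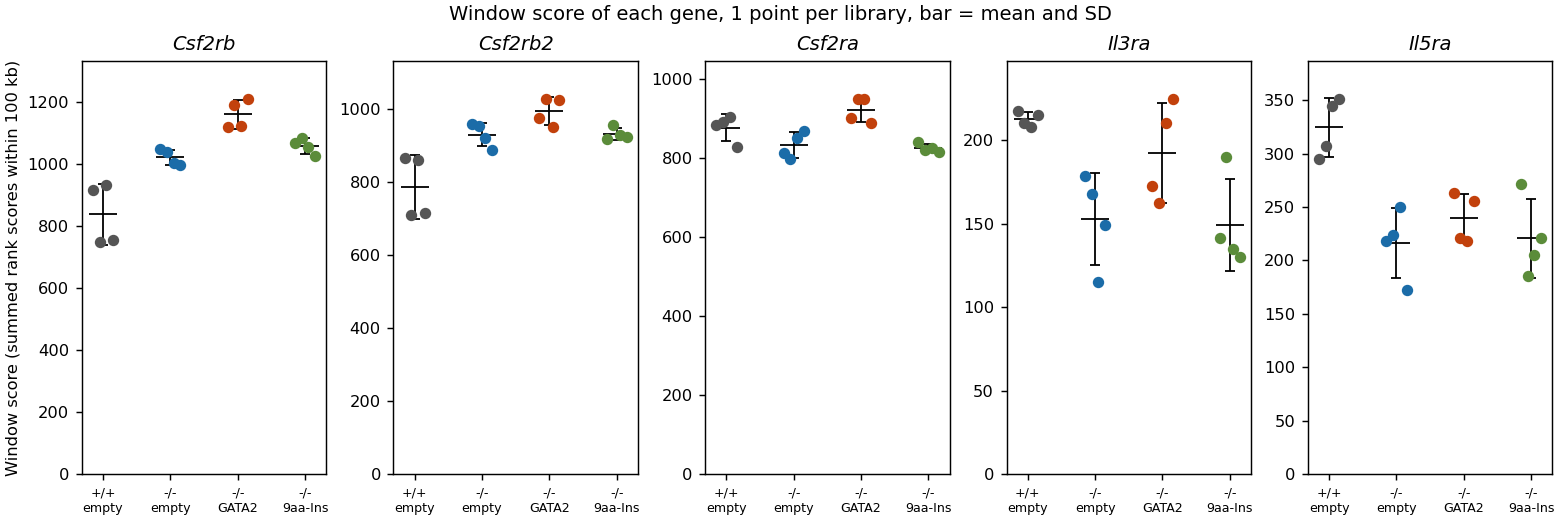
Window score of each receptor gene (y axis, summed rank scores within 100 kb of the 5' end) for the 4 libraries of each group; points are libraries and bars the mean and SD. Csf2rb is highest in the GATA2 libraries, between 1117 and 1210, and Il5ra is highest in hi-77+/+ empty, between 295 and 352.

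The genes whose window scores over the 16 libraries were most like those of the members were D6Ertd527e for Csf2rb (Pearson r = 0.967) and Fgf11 with Tmem102, which share a window, for Csf2rb2 (0.933). Homez with Ppp1r3e came first for Csf2ra (0.939), Avl9 for Il3ra (0.8495) and Zfp628 for Il5ra (0.943). The points share 4 groups and the number of peaks kept, so these values only describe.

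The rest of the pathway was read from window scores too. A list of 35 ligands, kinases, adapters, inhibitors and targets had 16 windows higher and 5 lower in hi-77-/- empty than in hi-77+/+ empty, or 45.7% and 14.3% (19.4% and 32.6% of all gene windows), and a median difference of 77.8 against -16.4 over all genes. All 3 ligand genes were higher, Csf2 by 152, Il3 by 84.8 and Il5 by 134 (adjusted p = 0.00447, 0.0388 and 0.00360), and so were both Stat5 genes, Stat5a by 356 and Stat5b by 310. Csf2 and Il3 lie beside each other, as do both Stat5 genes, so their windows overlap and these counts are not independent. All of these genes are on chromosome 11, where the median difference in rank score over all regions was 3.95, against -0.29 over all tested regions. The part of this shift in the pathway counts was not tested. With GATA2 5 of the 35 were higher and 5 lower, 14.3% each and near the 11.8% and 13.8% of all windows (median 4.36, against 1.82 over all genes). Socs3, a signal inhibitor that cytokines induce, fell by 399.6 (adjusted p = 0.000923), Fos, an immediate early gene, fell by 375.8 (adjusted p = 0.000212) and Lyn, a kinase gene, fell by 146.5 (adjusted p = 0.00997). Cish, an inhibitor that STAT5 induces, rose by 136 and Stat5b by 167 (adjusted p = 0.00738 and 0.0207). The rest with GATA2 were Il5, Gab2 and Socs2, which rose, and Il3 and Bcl2l1, which fell.

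Between 9aa-Ins and hi-77-/- empty limma called 0 of the 35, although 12 had an unadjusted p under 0.05 and the median difference was 39.2, against 5.005 over all genes. Between 9aa-Ins and GATA2, 8 were higher and 1 was lower, or 22.9% and 2.86% against 18.8% and 9.99% of all windows (median 39.4, against 4.13). Socs3 and Fos were again among the largest, at 421 and 443 higher with 9aa-Ins, and Socs2 was the lower one at -84.3.

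Regions of other cytokine receptor families were counted in the same way. With GATA2, the beta chain family had 9 higher and 6 lower of 41 tested. The IL-6 family and G-CSF receptor genes had 3 higher and 14 lower of 54 tested, and Kit, Flt3 and Csf1r had 5 higher and 14 lower of 40 tested. For 9aa-Ins against GATA2 the counts were 9 higher and 10 lower, 18 and 3 of 55, and 16 and 4 of 40. Of all tested regions, 9.17% were higher and 12.9% lower with GATA2, and 18.3% were higher and 9.7% lower with 9aa-Ins against GATA2. Opened and closed regions, which these counts can include, had a fixed direction. With GATA2 they numbered 5 and 2, 1 and 4, and 3 and 1, in the same family order. For 9aa-Ins against GATA2 they numbered 2 and 6, 4 and 1, and 2 and 3. No test of the difference between families was made.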

How the data were processed

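ATAC-seq peaks of 16 libraries were analyzed. The authors trimmed reads with Trim Galore 0.4.1, aligned them to mm10 with Bowtie2 2.2.5, removed duplicates with Picard 2.26.0, kept uniquely mapped reads, shifted read ends for the transposase and called peaks with MACS2 in each library (versions per the submitters' processing notes). A fixed background was named for the hi-77-/- groups only. The deposited peak lists hold a score, a fold enrichment (a ratio over the library's background), a -log10 p, a -log10 q and the summit offset for each peak; they hold no read counts, so the count model in the study's methods could not be used. The 49000 most significant peaks per library on chromosomes 1 to 19 and X were kept, ranked by -log10 p, and merged where they overlapped by at least 1 bp.

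Rank scores were compared with limma 3.58.1 (trend option) in R 4.3.3, with regions having a peak in at least 3 of 8 libraries tested and Benjamini-Hochberg adjustment over all of them; the scripts were tested on simulated data first. Window scores were summed over regions within 100 kb of a gene's 5' end (GENCODE M21). Regions named were those at a member's 5' end and those passing a test, up to 10 per gene by size of difference. The regions at -80.8, -47.2, -13.1 and -6.8 kb of Csf2rb and at +1.0, +5.0 and +5.4 kb of Il3ra were named after their values were seen. Inverted copies were aligned with Biopython 1.88, and 75-base words were counted on both strands of mm10. The members and lists were chosen with earlier results of these data known. Alternatives changed the number of peaks kept, the threshold, the width and overlap rules, the distance, the test, and the libraries. Same-numbered libraries did not deviate together (correlations between -0.0315 and 0.0859), so the numbers were not treated as pairs. Enrichments and ranks are relative within a library, so a change in overall accessibility cannot be seen.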

Additional observations from a re-analysis of the deposited data

Results flagged for a closer look

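Of 114 groups of 4 libraries tested for a stray library at the named regions, 13 had a highest or lowest library whose gap to the next, over the group's range, exceeded Dixon's 95% critical value. Chance alone gives about 1 in 20 groups, and regions with 3 libraries at or near 0 are called readily. Among the hi-77-/- GATA2 libraries, number 1 scored 44.71 at Il5ra +85.1 kb, with the others at or near 0, and 4.345 at Csf2ra +20.7 kb, where the group median was 57.4. Number 2 was at 0.0 at Csf2ra -4.0 kb (median 30.6), and number 4 was at 14.02 at Il5ra -56.1 kb (median 0) and at 6.331 at Csf2ra -35.4 kb (median 57.1).

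Among the hi-77+/+ empty libraries, number 2 was at 0.0 at the Csf2rb2 5' end (median 45.6) and number 1 at 21.19 at Csf2rb +76 kb (median 0). Number 3 was at 56.82 at Csf2ra +76.5 kb (median 74.4) and at 43.04 at Csf2ra -35.4 kb (median 0). In hi-77-/- empty, number 4 was at 84.7 at Csf2ra +29.8 kb (median 91.2) and at 66.27 at Csf2ra -4.0 kb (median 44.5). In hi-77-/- 9aa-Ins, number 4 was at 91.61 at Csf2rb -77.9 kb (median 86.1) and number 1 at 47.48 at Csf2rb +76 kb (median 70.01). The cause was not tested.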

How the results depend on the processing

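The comparisons A (hi-77-/- empty against hi-77+/+ empty), B (GATA2 against hi-77-/- empty), C (9aa-Ins against hi-77-/- empty) and D (9aa-Ins against GATA2) gave 9 higher and 8 lower receptor regions, 9 and 6, 1 and 2, and 9 and 10. Leaving out 1 library at a time gave 8 to 9 and 5 to 8, 7 to 9 and 4 to 6, 0 to 2 and 1 to 3, and 7 to 9 and 10 to 10, with the 5 reached without hi-77+/+ empty 3. With 50% as many peaks kept, A gave 5 lower, B 3 higher, C 1 lower and D 4 lower. With all peaks, C gave 4 higher and 0 lower and D 6 lower. With peaks narrower than 1 kb, A gave 5 higher and C 0 higher and 1 lower, and with no filter A and C gave 5 and 1 lower. Where a peak had to cover 50% of its region (the coverage rule), A gave 3 and 5, B 4 and 1, C 1 lower and D 4 higher. Within 50 kb, A gave 3 and 3, B 1 lower and D 3 higher. Presence alone gave 0 and 0, 5 and 2, 0 and 0, and 2 and 6. The exact permutation test with adjustment gave 0 in all 4 (14, 15, 4 and 19 regions had an unadjusted p under 0.05, the smallest possible being 0.0286 and the smallest adjusted value 0.0785).

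Window scores changed sign as follows. For A, Csf2rb was -48.44 with all peaks and -10.31 within 50 kb, Csf2rb2 -64.19 and -6.587, and Csf2ra 11.41 within 50 kb. For C, leaving out single libraries gave Csf2rb2 -13.03 to 10.19, Csf2ra -18.65 to 5.214, Il3ra -17.1 to 5.09 and Il5ra -12.56 to 16.37. Also for C, narrow peaks gave Csf2rb -11.05, Csf2rb2 -74.29 and Il3ra 4.474, rank within the chromosome Csf2rb2 -8.196 and Csf2ra 0.3496, all peaks Csf2ra 21.74 and Il3ra 139.2, the coverage rule Csf2ra 116.2, and 50 kb Il5ra -1.107. For D, all peaks gave Csf2rb 140.7, Csf2rb2 152.8, Il3ra 91.94 and Il5ra 35.74, 50% of the peaks Csf2rb 19.61, Csf2rb2 27.22 and Il5ra 2.04, and the coverage rule Csf2rb 116.7, Csf2rb2 115.8 and Csf2ra 37.08. For GATA2 against hi-77+/+ empty, Csf2ra was -58.41, -15.07 and -20.41 (all peaks, 50% of the peaks, coverage rule), Il3ra 4.136 and 7.801 (coverage rule, 50 kb) and Il5ra 34.81 (50 kb). For 9aa-Ins against hi-77+/+ empty, Csf2ra was 16.67 (coverage rule) and Il3ra 40.3 (all peaks). Region Csf2rb -67.8 kb in C became -86.52 with narrow peaks. This region is 1441 bp wide, and that setting leaves out peaks of 1 kb or more. The cause was not tested.

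With the replicate number as a block, 10 and 7, 9 and 6, 1 and 2, and 9 and 10 regions were called in A to D, and same-numbered libraries are not pairs in the data. The block ended the window calls of Csf2ra in B (89.92, adjusted p = 0.0666) and Csf2rb in D (-102.5, adjusted p = 0.0619) and those of the Il3ra regions at -51.7 and +2.7 kb in A. Over the named regions with 1 library left out, 340 differences kept their call and 52 lost it. Read depth is unknown, and a score of 0 means only that no kept peak was there.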
